A study of Mus musculus with 12 samples.

Results

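Imprinted genes are expressed mainly from the copy inherited from one parent. The set described here held 45 of them, taken from a list of names with earlier results of these data known, out of 31827 annotated mouse genes of the same kinds. By the parent whose copy is known from textbooks to be expressed, 25 were paternally expressed and 20 maternally expressed, and 38 were protein-coding and 7 were noncoding RNA genes. The measurement was a map of H3K9ac, the acetylated form of lysine 9 of histone H3 that marks active promoters and enhancers, made from adult mouse liver by sequencing of precipitated chromatin (ChIP-seq). A peak was assigned to a gene when it overlapped the gene body or the 5 kb on either side of the gene start.

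There were 6 peak lists. Of these, 2 were of the strain C57BL/6J (B6) and 2 of the strain MSM/Ms (MSM). A further list was of F1 BM, the hybrid whose mother was B6 and whose father was MSM, and the last was of F1 MB, the reciprocal hybrid, whose mother was MSM and whose father was B6. The parental libraries are named B6 1, B6 2, MSM 1 and MSM 2, each from another individual, and values with no library named are given in the order B6 1, B6 2, MSM 1, MSM 2, F1 BM and F1 MB. No treatment differed between the groups. The labels gave no sex, and the lists held 0, 0, 8, 4, 9 and 1 peaks on chromosome Y, which ran with strain and cross and whose part in the comparisons was not tested. The reference genome is that of B6, whereas MSM was inbred from wild mice of Japan. Each F1 cross was represented by 1 mouse, so its values have no replicate error. The peak lists hold no allele information, so the maternal and the paternal copy of a gene cannot be told apart within any list. In bulk liver, a mark in few cells and a weak mark in many cells cannot be told apart either.

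Imprinting is set in the germ line by DNA methylation of control regions on the egg or the sperm chromosome, and these marks are kept after fertilisation by ZFP57 and ZFP445, zinc finger proteins that recruit the corepressor TRIM28. Imprinted genes lie in clusters, in which a long noncoding RNA such as Airn or Kcnq1ot1 often silences protein-coding neighbours on its own chromosome copy. Many of them control growth before birth and are switched off in the liver after it, among them Igf2, H19, Dlk1 and Plagl1. In a reciprocal pair of hybrids the same 2 genomes are present, but the parent each one came from is exchanged.

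The lists differed in length, which limits every count below. They held 22968, 11619, 17310, 17584, 20173 and 13235 peaks, and the median fold enrichment ran from 3.38 in F1 BM to 5.23 in B6 1. Fold enrichment is the peak caller's linear ratio of signal at the summit over background, and it was compared between lists as its percentile, the percentage of the peaks of the same list with an equal or lower fold. All 10 hepatocyte markers, such as Alb and Apoa1, had a peak in every list. Of the 5 Kupffer cell markers 1 (Cd68) had a peak in every list and 4 had none in any. Of the 5 endothelial markers 4, 0, 3, 5, 5 and 2 had a peak. Of the 5 stellate cell markers 4 had none in any list, and the remaining one, Dcn, had a peak in F1 BM alone. Of the 4 cholangiocyte markers 3 had none, and the remaining one, Sox9, had a peak in B6 1 alone. Of the 5 neuronal markers 3 had none in any list, and 2, 1, 1, 1, 2 and 1 had a peak. Among them, Rbfox3 had a peak in both B6 libraries and no MSM library, as had 0.804% of all genes. All 5 muscle markers had none. The part of other cell types in the results below was not tested.

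The DNA under the peaks differed among imprinted genes, and windows of 300 bp centred on the strongest summit are shown for the regions on which the account turns, with the promoter of a gene that had no peak. All are from GRCm38, plus strand, 5′ to 3′. Capitals mark TGCCGC or its reverse complement GCGGCA, the core of the motif bound by ZFP57. The window at the start of Zrsr1 lay at chr11:22972103-22972402 and had a peak in all 6 lists. The window under the peak with the highest median fold, in Slc38a4, lay at chr15:97030757-97031056. The Slc22a18 window, at chr7:143473874-143474173, had a peak in both B6 libraries and in neither MSM library. The Phlda2 window, at chr7:143502499-143502798, had a peak in MSM 1 alone. The windows in Peg13 (chr15:72809671-72809970) and Snrpn (chr7:60004630-60004929) held 3 matches each and had a peak in 2 lists and in 1 list. The Mest promoter, from RefSeq, lay at chr6:30737800-30738099, held 2 matches and had no peak in any list.
Zrsr1: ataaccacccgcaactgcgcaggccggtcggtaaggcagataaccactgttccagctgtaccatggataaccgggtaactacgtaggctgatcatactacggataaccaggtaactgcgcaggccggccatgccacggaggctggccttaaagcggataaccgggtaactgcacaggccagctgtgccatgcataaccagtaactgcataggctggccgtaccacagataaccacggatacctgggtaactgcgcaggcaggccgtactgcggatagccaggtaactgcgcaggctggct
Slc38a4: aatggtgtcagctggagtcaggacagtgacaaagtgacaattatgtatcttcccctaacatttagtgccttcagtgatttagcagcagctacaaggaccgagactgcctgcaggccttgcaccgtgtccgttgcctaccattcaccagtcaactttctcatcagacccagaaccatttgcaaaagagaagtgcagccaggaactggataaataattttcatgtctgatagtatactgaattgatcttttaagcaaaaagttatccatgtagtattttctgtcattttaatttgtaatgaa
Slc22a18: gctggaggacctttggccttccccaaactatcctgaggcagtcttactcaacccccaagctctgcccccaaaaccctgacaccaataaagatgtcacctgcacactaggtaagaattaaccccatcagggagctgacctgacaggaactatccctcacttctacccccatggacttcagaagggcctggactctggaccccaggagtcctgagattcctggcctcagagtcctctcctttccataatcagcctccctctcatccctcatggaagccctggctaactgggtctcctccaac
Phlda2: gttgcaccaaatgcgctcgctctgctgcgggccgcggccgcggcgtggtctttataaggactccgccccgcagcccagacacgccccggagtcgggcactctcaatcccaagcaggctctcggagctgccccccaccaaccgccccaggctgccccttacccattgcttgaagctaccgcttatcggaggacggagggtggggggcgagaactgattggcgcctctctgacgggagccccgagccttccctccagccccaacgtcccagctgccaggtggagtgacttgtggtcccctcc
Peg13: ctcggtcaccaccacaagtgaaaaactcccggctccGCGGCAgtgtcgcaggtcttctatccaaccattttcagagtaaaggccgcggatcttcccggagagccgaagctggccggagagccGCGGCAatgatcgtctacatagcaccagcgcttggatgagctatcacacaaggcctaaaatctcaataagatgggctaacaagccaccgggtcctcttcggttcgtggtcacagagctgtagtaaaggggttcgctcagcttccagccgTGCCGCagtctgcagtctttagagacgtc
Snrpn: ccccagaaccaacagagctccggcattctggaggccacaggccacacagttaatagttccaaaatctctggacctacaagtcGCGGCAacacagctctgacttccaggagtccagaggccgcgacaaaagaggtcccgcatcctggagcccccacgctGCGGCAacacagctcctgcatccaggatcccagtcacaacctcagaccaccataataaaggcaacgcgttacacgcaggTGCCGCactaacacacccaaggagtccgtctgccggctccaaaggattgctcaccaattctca
Mest: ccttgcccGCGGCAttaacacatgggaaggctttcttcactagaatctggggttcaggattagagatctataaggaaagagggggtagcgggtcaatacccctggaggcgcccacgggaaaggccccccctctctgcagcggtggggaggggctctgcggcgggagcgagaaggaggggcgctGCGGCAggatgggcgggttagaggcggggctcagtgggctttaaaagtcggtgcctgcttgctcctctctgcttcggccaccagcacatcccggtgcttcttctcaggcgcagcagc

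The windows had unlike base composition. The Slc22a18 window held 0 CG dinucleotides and the Slc38a4 window held 3, against 18 in Zrsr1, 21 in Peg13, 23 in Phlda2 and 14 in Snrpn. The hexamer was found in 11 of the 53 regions in windows of imprinted genes (20.8%), against 12.1% of all 27326 regions, counting both strands. In the RefSeq promoters (250 bases before to 50 after the start), which matched 35 of the 45 genes, it was found in 12 of 53 (22.6%), against 11.6% of all 32807 promoters. Among the imprinted gene promoters, 1 of 12 with a peak in any list held the hexamer (8.33%) and 11 of 41 without a peak did (26.8%). Over all promoters, in contrast, the shares were 20.2% with a peak and 8.15% without. The hexamer contains a CG, and the promoter sets differed in CG dinucleotides. The median was 15 in the imprinted gene promoters, against 7 over all promoters. With a peak the medians were 17.5 and 22, and without a peak 13 and 4. The part of CG content in the hexamer shares was not tested. Overlapping promoters of a gene were counted apart. Those of Mest at chr6:30737800-30738099 and chr6:30737803-30738102, both without a peak, held the same 2 matches. Of the other motifs searched on both strands, AAGATGG, contained in the motif of the factor YY1, was in 4 of the 53 regions (7.55%) against 5.15% of all regions, and TATAAA was in 5 (9.43%) against 10.9%. In the promoters AAGATGG was in 1 of 53 (1.89%) against 6.33% of all, and TATAAA in 12 (22.6%) against 13.6%. A match is a description of the sequence and was not tested as a binding site. None of the motifs contains another, and overlap between their matches was not checked.

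Most imprinted genes had either no H3K9ac peak at all or a peak in only some lists. A peak lay in the window in all 6 lists for 8 of the 45 genes (17.8%), against 23.0% of all genes. In no list was there a peak for 22 (48.9%), against 56.3% of all genes, and 15 had a peak in 1 to 5 lists. Over protein-coding genes, 8 of 38 imprinted genes (21.1%) had a peak in every list, against 28.5% of all such genes, and 18 (47.4%) had none, against 47.2%. The shares thus lay near the background, although the windows of imprinted genes, with a median of 35.7 kb, were longer than those of all genes, with a median of 17.9 kb. Of the 20 maternally expressed genes 5 had a peak in every list and 8 had none. Of the 25 paternally expressed genes 3 had a peak in every list and 14 had none. Of the 7 noncoding RNA genes 4 had none and 0 had a peak in every list. Over all 31827 genes, the 21910 protein-coding ones made up 6246 of the 7335 with a peak in every list. They made up 10331 of the 17927 with none. All noncoding genes thus had a higher share with none, and a lower share with a peak in every list, than protein-coding genes.

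**Figure D1:**
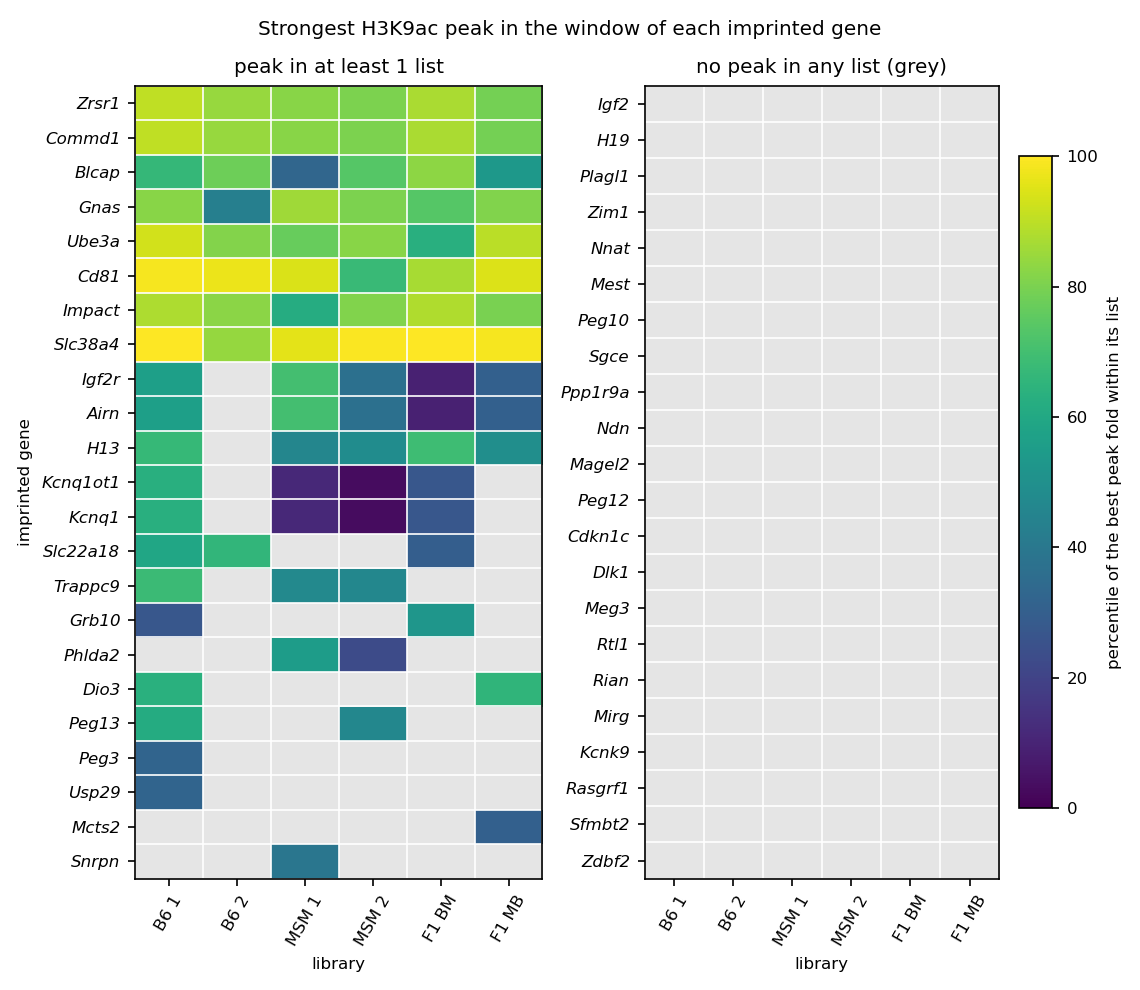
Percentile of the strongest H3K9ac peak in the window of each of the 45 imprinted genes (rows) in each of the 6 libraries (columns), coloured from 0 to 100, with grey for no peak. The left panel holds 23 genes with a peak in at least 1 list, of which the top 8 are filled in every column, and the right panel holds the 22 genes that are grey throughout.

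The longest list, B6 1, had the most imprinted genes with a peak and the shortest, B6 2, the fewest, but the lists between them did not keep this order. The number was 20 in B6 1, 9 in B6 2, 16 in MSM 1, 16 in MSM 2, 15 in F1 BM and 13 in F1 MB. As shares these were 44.4%, 20.0%, 35.6%, 35.6%, 33.3% and 28.9%, beside 41.7%, 27.0%, 34.0%, 34.5%, 34.6% and 30.05% of all genes. The B6 replicates stood furthest apart, and both MSM values lay between them.

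**Figure D2:**
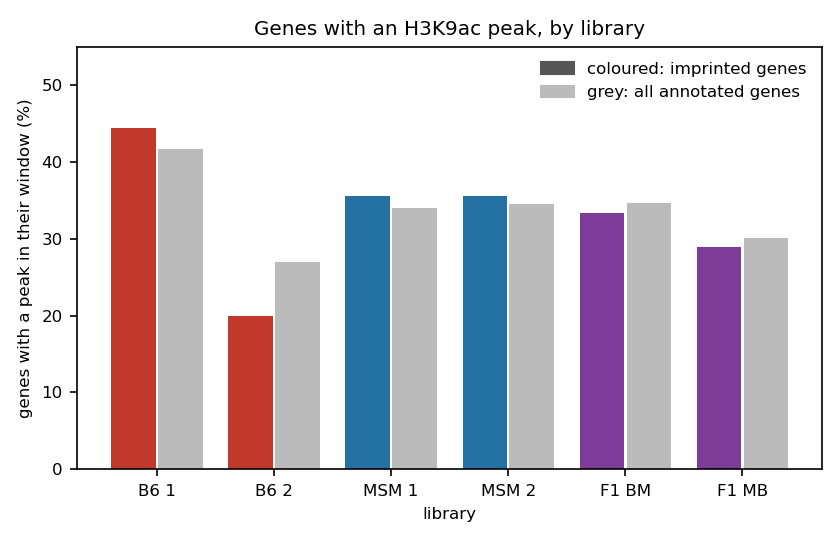
Percentage of genes with an H3K9ac peak in their window in each library, for the 45 imprinted genes (coloured bars, 1 colour for each of B6, MSM and F1) and for all 31827 annotated genes (grey bars). The imprinted share runs from 20.0% in B6 2 to 44.4% in B6 1 and stays close to the grey bar beside it.

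By median fold over the 6 lists, the strongest peak was at Slc38a4, a paternally expressed gene for a transporter of neutral amino acids into hepatocytes. Its best fold enrichment was 19.3, 6.43, 10.5, 15.5, 13.5 and 11.5, at percentiles 99.6, 84.0, 95.7, 99.3, 99.96 and 98.6. Among the parental lists B6 2 was the lowest and B6 1 the highest on both scales, so the strains overlapped. By percentile F1 BM was the highest of all lists. This peak (chr15:97028871-97031263) covered an exon and an internal transcript start with the summit 25049 bp downstream of the annotated gene start. No region covered the annotated start. The nearest, 711 bp downstream of it (chr15:97054668-97055245), had a weaker peak in B6 1, MSM 1, MSM 2 and F1 BM, with folds of 4.38, 5.20, 3.57 and 3.18.

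Slc38a4 held 18 of the 53 regions of the imprinted genes, where a region is a merged stretch of peaks of the 6 lists. Of these, 5 had a peak in all 6 lists and 5 in 1 list. Peaks covered 10568, 5521, 7367, 6940, 13840 and 6305 bp of the window. F1 BM had the longest cover and B6 2 the shortest. A region in an intron, with its summit 51833 bp downstream of the start (chr15:97003785-97004334), was the only one in the set with a peak in both MSM libraries and in neither B6 library. Its folds were 3.36 in MSM 1, 3.71 in MSM 2, 3.18 in F1 BM and 3.39 in F1 MB. It was thus present in both reciprocal hybrids. Its percentiles in these 4 lists, 11.5, 17.7, 41.7 and 14.7, placed it among the weaker peaks of MSM 1, MSM 2 and F1 MB. The call of this region for MSM was lost when every list was limited to an equal number of peaks. There the only region called for MSM was that of Igf2r and Airn. At equal covered length no region was called for MSM.

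**Figure D3:**
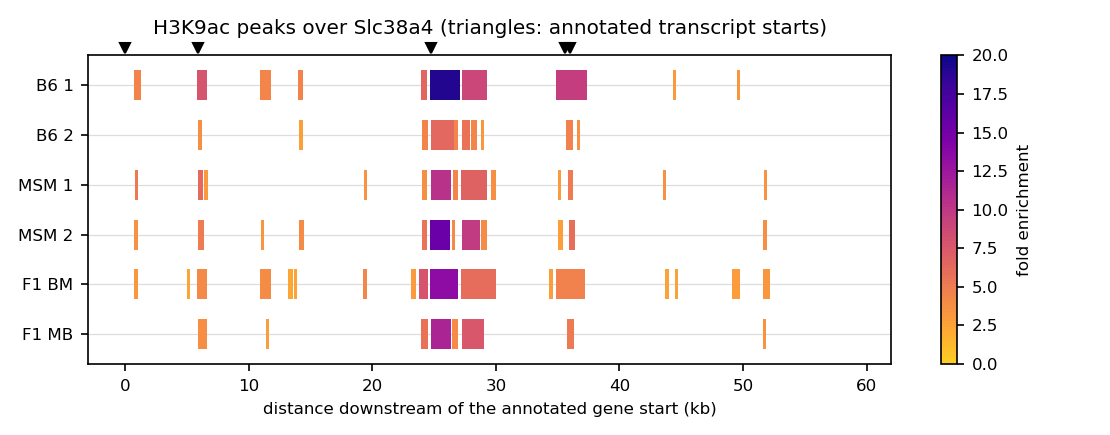
H3K9ac peaks along Slc38a4 in the 6 libraries, by distance downstream of the annotated gene start in kb, coloured by fold enrichment from 0 to 20, with triangles at annotated transcript starts. The darkest peak is present in every library, and the bar farthest downstream is present in MSM 1, MSM 2, F1 BM and F1 MB.

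Cd81, maternally expressed in some tissues, codes for a tetraspanin of the cell surface. The peak at its start (chr7:143052783-143054052) had folds of 16.1, 9.06, 9.89, 5.99, 5.29 and 8.91. The B6 mean was 12.6 ± 5.001 and the MSM mean 7.94 ± 2.76 (SD, n = 2 each), a difference close to the spread between replicates (two-sided exact permutation p = 0.667, smallest possible 0.333). As percentiles, both B6 values (98.6 and 97.0) lay above both MSM values (94.4 and 67.7). The hybrids were at percentiles of 87.0 in F1 BM and 94.7 in F1 MB, inside the parental range.

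Zrsr1, a paternally expressed splicing factor gene that arose by retrotransposition, lies inside Commd1, a maternally expressed regulator of copper transport and NF-kappaB. The peak at the Zrsr1 start (chr11:22972047-22973723), the first sequence shown, had folds of 10.7, 6.51, 7.29, 7.16, 5.35 and 6.26. The B6 mean was 8.58 ± 2.94 and the MSM mean 7.22 ± 0.0875 (SD, n = 2 each; two-sided exact permutation p = 1). The percentiles were 90.5 and 84.7 in B6 and 82.2 and 80.2 in MSM, so the strains did not overlap by rank although they did by fold. F1 BM was at 87.5, inside the parental range, and F1 MB at 79.1, below it. This same peak was also the strongest in the window of Commd1, so the 2 genes are not independent in any count. Its region also covered the start of an annotated Commd1 transcript and overlapped exons of both genes. The peak can therefore not be assigned to Zrsr1 alone.

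Commd1 had a weaker peak at its annotated gene start (chr11:22981479-22982811). Its folds were 4.31, 4.19, 3.96, 4.47, 3.86 and 4.50. As percentiles these were 33.3, 40.6, 25.4, 38.1, 65.1 and 47.9. The strains overlapped on both scales, and by percentile both hybrids lay above all 4 parental values. By fold, F1 BM (3.86) was the lowest of the lists and F1 MB (4.50) the highest.

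Ube3a, an E3 ubiquitin ligase gene that is maternally expressed in neurons and expressed from both copies in most other tissues, had peaks on both sides of its start. The downstream peak (chr7:59228754-59229830) had folds of 11.7, 6.19, 6.63, 7.44, 3.79 and 7.59. The B6 mean of 8.94 ± 3.89 and the MSM mean of 7.04 ± 0.570 differed by less than the B6 spread (SD, n = 2 each; two-sided exact permutation p = 1). The percentile in F1 BM, 63.2, lay below all 4 parental values, which ran from 76.6 to 93.1.

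Gnas codes for the stimulatory G protein subunit and has several promoters imprinted in opposite directions. Its peak (chr2:174330212-174331003) had its summit 46377 bp downstream of the outermost gene start, at the first exon of another annotated Gnas transcript. The folds were 8.65, 4.28, 7.84, 7.16, 4.23 and 6.48. As percentiles they were 82.2, 43.2, 85.9, 80.2, 73.5 and 81.2, so B6 2 alone stood low and both hybrids lay inside the parental range. On the fold scale the B6 mean of 6.47 ± 3.09 and the MSM mean of 7.50 ± 0.477 overlapped (SD, n = 2 each; two-sided exact permutation p = 1). No list had a peak within 1 kb of the outermost start.

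Blcap, a maternally expressed gene in brain with a role in apoptosis, had a peak (chr2:157565370-157567308) at an internal transcript start. Its folds were 6.58, 5.87, 4.24, 6.50, 4.89 and 4.70. MSM 1 was the lowest and MSM 2 lay beside B6 1, so the strains overlapped (B6 mean 6.23 ± 0.503, MSM mean 5.37 ± 1.59, SD, n = 2 each; two-sided exact permutation p = 0.667). The paternally expressed Nnat, which lies in the intron of Blcap, had no peak in any list, and its start was 5.29 kb from this region.

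Impact, a paternally expressed regulator of translation under amino acid shortage, had 4 regions. The strongest, in an intron with its summit 17841 bp downstream of the start, had folds of 9.78, 6.31, 5.54, 7.29, 5.44 and 6.32. The percentiles of 87.7 and 82.7 in B6 were both above the 61.9 and 81.2 in MSM. At the gene start, in contrast, a region just upstream had a peak of fold 5.61 in B6 1 and 5.41 in B6 2, and no peak in either MSM library. The hybrids both had it, with a fold of 3.16 in F1 BM and 4.82 in F1 MB, at percentiles of 40.9 and 56.4.

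Strain differences were counted as genes or regions for which the 2 libraries of one strain did not overlap those of the other. By presence, 1 of the 45 imprinted genes (Slc22a18) had a peak in both B6 libraries and no MSM library, against 0.804% of all genes. In the opposite direction 1 gene (Phlda2) was called, against 0.465% of all genes. By region, 2 of 53 were called for B6 (at Slc22a18 and Impact), against 3.06% of all regions, and 1 of 53 for MSM (in Slc38a4), against 3.07%. A count of 1 or 2 out of 45 or 53 is too small to set apart from these backgrounds. The counts also turned on the B6 replicates. Without B6 2, 5 genes and 15 regions were called for B6 by presence, against 5.81% of all genes and 27.1% of all regions. Without B6 1, 7 genes and 6 regions were called for MSM, against 6.58% and 15.2%. Without MSM 2, 2 genes and 5 regions were called for MSM, against 0.895% and 7.05%, and without MSM 1, 3 regions were, against 7.36%.

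Among the 8 imprinted genes with a peak in all 4 parental lists, the best fold percentile was higher in both B6 libraries for 4 (Zrsr1, Commd1, Cd81 and Impact), against 18.6% of the 7866 genes tested. It was higher in both MSM libraries for 0, against 14.4%. Since Zrsr1 and Commd1 share a peak, the 4 genes rest on 3 peaks. The covered length was higher in B6 for 0 of the 8, against 14.3% of genes, and higher in MSM for 0, against 4.63%. Of the 8 exact permutation tests on fold 0 reached the smallest possible p of 0.333, and of the 8 on percentile 4 did. With 2 against 2 libraries, values that do not overlap always give this p. Those 4 tests thus restate the 4 percentile calls for B6 and add nothing to them. Some of these counts moved when a parental library was left out. Without B6 2, 14 imprinted genes had a peak in the remaining parental lists. Of these, 10 had the higher percentile in B6, against 50.5% of the 9812 genes then tested, and 14 the longer cover, against 83.9%. Without B6 1, 5 of 8 had the higher percentile in B6, against 23.7% of genes, and without MSM 1 and MSM 2 it was 4 and 6 of 8, against 33.8% and 32.5%. Without B6 1, 2 of 8 had it higher in MSM, against 48.5% of 7870 genes, and 4 the longer cover, against 66.7%. Without MSM 2, 1 of 8 had the higher percentile in MSM, against 28.3%, and 3 the longer cover in B6, against 24.5%. Without MSM 1, 1 of 8 had the longer cover in B6, against 24.3%.

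Slc22a18, a maternally expressed gene for an organic cation transporter, was the only gene of the set with a peak in both B6 libraries and no MSM library. Its region (chr7:143473802-143474858) covered a transcript start just downstream of the annotated gene start and had folds of 5.89 in B6 1, 5.14 in B6 2 and 2.92 in F1 BM. MSM 1, MSM 2 and F1 MB had no peak in the window. The −log10 q values were 17.3, 10.04 and 6.76, far above the lowest in any list, and the percentiles were 59.1, 65.8 and 29.9. In F1 BM the maternally inherited copy is the B6 copy, and in F1 MB it is the MSM copy. Which copy carried the mark in F1 BM was not measured. The call for B6 was lost when each list was limited to the covered length of the shortest list, and F1 MB was the shorter F1 list.

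Phlda2, a maternally expressed inhibitor of placental growth, lies next to Slc22a18 on the same chromosome and runs on the opposite strand. It had 1 peak in MSM 1 (chr7:143502577-143502832, fold 5.17, percentile 55.2) and 1 in MSM 2 (chr7:143501928-143502167, fold 3.92, percentile 23.0). Both overlapped Phlda2 exons but did not touch, so by region Phlda2 was not a strain difference. Neither hybrid had a peak there. The MSM 2 peak had a −log10 q of 3.37, and with a minimum of 5 the gene was no longer called. The call was also lost with every list limited to an equal number of peaks or to an equal covered length.

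**Figure D4:**
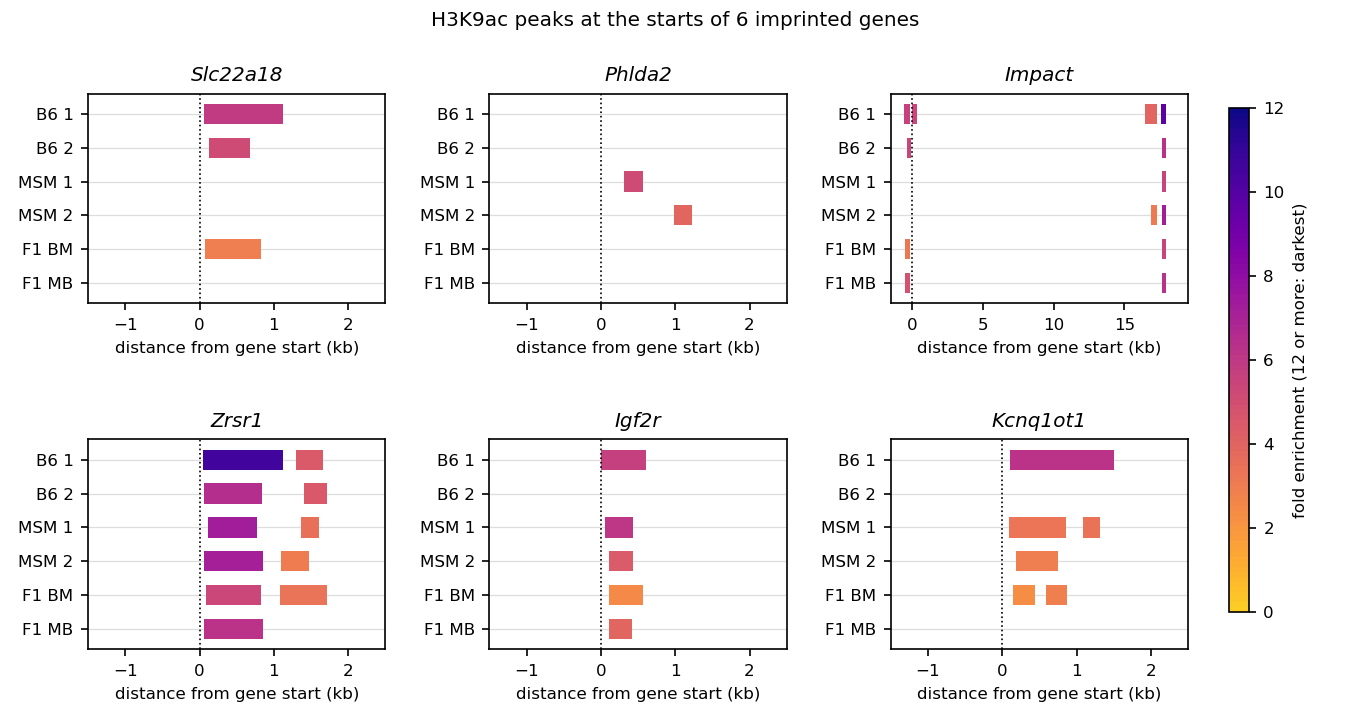
H3K9ac peaks around the starts of 6 imprinted genes in the 6 libraries, by distance from the annotated gene start in kb (dotted line at 0, positive values downstream), coloured by fold enrichment, with 12 or more darkest. Slc22a18 has bars in B6 1, B6 2 and F1 BM, Phlda2 in MSM 1 and MSM 2 at different places, and the left end of the wider Impact panel shows bars in B6 1, B6 2, F1 BM and F1 MB.

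The Kcnq1 cluster, to which Slc22a18, Phlda2 and Cd81 belong, is silenced on the paternal copy by the noncoding RNA Kcnq1ot1. A peak near its 5′ end (chr7:143295040-143296459) had folds of 6.26 in B6 1, 3.36 in MSM 1, 2.89 in MSM 2 and 2.87 in F1 BM. B6 2 and F1 MB, the lists with the fewest peaks, had none. Because Kcnq1ot1 lies in an intron of Kcnq1, a potassium channel gene, the same region was also counted for Kcnq1, whose own start had no peak. Cdkn1c, a cell cycle inhibitor of the cluster, had no peak in any list, and the nearest region, that of Slc22a18, lay 12.8 kb from its start.

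Igf2r, the maternally expressed receptor that clears IGF2, had a peak at its start (chr17:12769052-12769664) in every list but B6 2. The folds were 5.68 in B6 1, 6.10 in MSM 1, 4.44 in MSM 2, 2.44 in F1 BM and 3.91 in F1 MB. F1 BM was the lowest, at a percentile of 9.10, against 30.5 in F1 MB. The 300 bp around its summit held 45 CG dinucleotides. Airn, the paternal noncoding RNA that runs antisense through Igf2r, was counted with this region because its body covers it. The start of Airn itself had no peak in any list.

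H13, a maternally expressed signal peptide peptidase gene, likewise had a start peak in every list but B6 2, with folds of 6.64, 4.75, 4.61, 4.01 and 4.56. Mcts2, a paternally expressed retrogene in an intron of H13, had 1 peak, in F1 MB, with a fold of 3.91 and a −log10 q of 3.46. Trappc9, which codes for a subunit of a vesicle tethering complex, had a start peak in B6 1, MSM 1 and MSM 2, with folds of 6.76, 4.799 and 3.99, and none in either hybrid. Peg13, a paternal noncoding RNA inside Trappc9, had the motif-bearing peak shown above in B6 1 (fold 6.11) and MSM 2 (fold 4.81). For these genes the lists without a peak included the shortest one, B6 2.

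The remaining genes with a peak had it in 1 or 2 lists. Dio3, a paternally expressed deiodinase that inactivates thyroid hormone, had 2 regions upstream of its start, both in B6 1 and F1 MB. The best folds were 6.29 in B6 1 and 5.28 in F1 MB, and no other list had a peak in its window. The region farther upstream covered the start of Dio3os. Both regions lay within 1 kb of starts of Dio3, Dio3os and Mir1247, so they cannot be assigned to Dio3 alone. Grb10, a growth factor receptor adaptor that restrains growth, had 4 intronic regions, of which 2 were in B6 1 and 2 in F1 BM, at different places, with best folds of 4.04 and 3.44. Peg3, a zinc finger gene, and its neighbour Usp29 shared 1 region of fold 4.25 in B6 1. Snrpn, a splicing protein gene whose control region is that of the Prader-Willi and Angelman cluster, had 1 intronic region of fold 4.48 in MSM 1. The nearest transcript start was that of Snurf, and transcripts of Snrpn and Gm38393 also started within 1 kb of the region.

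Regions in a single list had a lower best −log10 q than those in all 6. This order was built in, since a best over 6 lists tends to exceed a best over 1. Being called in every list also needs a strong peak, so no conclusion is drawn from it. Of the 53 regions, 21 (39.6%) were in 1 list, against 30.6% of all regions, and 13 (24.5%) were in all 6, against 25.3%. The best −log10 q of the regions in 1 list had a median of 6.22 and ran from 2.78 to 12.4. For those in all 6 lists the median was 32.7, with a range from 14.1 to 138. Of the 21 single-list regions 8 came from B6 1, 8 from F1 BM, 2 from MSM 1, 2 from MSM 2, 1 from F1 MB and 0 from B6 2. B6 1 and F1 BM were the lists with the most peaks. B6 1 thus gave 38.1% of these regions against 56.1% of all single-list regions, and F1 BM gave 38.1% against 22.8%. Of the 53 regions, 34 (64.2%) lay within 1 kb of a transcript start, against 61.6% of all regions. In each case a transcript of a gene of the set started there. In Slc38a4 and Gnas some of these transcript starts lay far from the annotated gene start.

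The reciprocal hybrids were compared as 1 library against 1, with no test. A peak was present in F1 BM and absent from F1 MB for 4 of the 45 genes (Grb10, Kcnq1ot1, Kcnq1 and Slc22a18), against 6.43% of all genes. The reverse held for 2 (Mcts2 and Dio3), against 1.85%. Both shares, 8.89% and 4.44%, rested on few genes, and Kcnq1ot1 and Kcnq1 share their peak. With every list limited to the number of peaks of the shortest one, 0 genes were left for F1 BM, against 2.94% of all genes, and 1 (Dio3) for F1 MB, against 5.01%. At equal covered length there were 0 for F1 BM, against 0.949% of all genes, and 3 for F1 MB (H13, Gnas and Dio3), against 9.03%. The order of the hybrids over all genes thus changed with the length of the lists as well. By the textbook direction of imprinting, the genes found in F1 BM alone comprised 3 maternally expressed genes and Kcnq1ot1, and those in F1 MB alone were both paternally expressed. With these few genes, and with no allele information, nothing can be read from that division.

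Where both hybrids had a peak, 11 imprinted genes could be compared by the length that peaks covered. The length was at least 2-fold longer in F1 BM for 2 (Slc38a4, 13840 against 6305 bp, and Commd1, 2383 against 1078 bp), against 20.0% of the 8974 genes tested. It was at least 2-fold longer in F1 MB for 1 (H13, 749 against 369 bp), against 1.73%. Of the 749 bp, 289 bp were the Mcts2 peak inside H13, and the H13 start peak itself covered 460 bp in F1 MB and 369 bp in F1 BM. F1 BM covered 12.3 Mb of the genome in all and F1 MB 7.46 Mb.

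The hybrids were also set against the range of the 4 parental lists. For the 8 genes with a peak in every list, the F1 BM percentile was within the 4 parental values for 4, above them for 3 (Blcap, Impact and Slc38a4) and below for 1 (Ube3a). Over all genes with a peak in every list these shares were 64.1%, 18.2% and 17.7%. By fold, in contrast, F1 BM lay below all 4 parental values for Zrsr1, Commd1, Gnas, Ube3a, Cd81 and Impact. It lay within them for Blcap and Slc38a4. The median fold of F1 BM, 3.38, was the lowest of the lists, so the 2 scales place this hybrid differently. The F1 MB percentile was within the range for 6, below for 2 (Zrsr1 and Commd1, by their shared peak) and above for 0, against 60.7%, 26.9% and 12.3% of all genes. By covered length, F1 BM was within the range for 7 and above it for 1 (Slc38a4), against 76.6% and 17.3% of all genes. F1 MB was within it for 5 and below it for 3 (Zrsr1, Commd1 and Blcap), against 71.0% and 27.9%.

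The 22 genes without a peak included growth regulators (Igf2, H19, Plagl1, Dlk1, Rasgrf1), retrotransposon-derived genes (Peg10, Rtl1) and genes best known from the brain (Nnat, Ndn, Magel2). The other 12 were Zim1, Mest, Sgce, Ppp1r9a, Peg12, Cdkn1c, Meg3, Rian, Mirg, Kcnk9, Sfmbt2 and Zdbf2. The distance from the gene start to the nearest region of any list had a median of 129 kb and ran from 5.29 kb (Nnat) to 990 kb (Ndn). At the Igf2 and H19 cluster the nearest region, close to the start of Mrpl23 and present in 4 lists, was 133 kb from Igf2 and 44.4 kb from H19. At Meg3, a maternal noncoding RNA of the Dlk1 cluster, it was 12.01 kb away and present in 1 list. A missing peak cannot be told from one too weak for the depth of a library, since read counts were not used here.

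A further 35 imprinted genes outside the set gave like shares, with 8 in all 6 lists (among them Tssc4, Nap1l4, Ddc and Gab1) and 18 in none. Over all genes the shares were 23.0% in all 6 lists and 56.3% in none. Among these 35, 1 gene, Cobl, had a peak in both B6 libraries and no MSM library, against 0.804% of all genes. Of 15 genes that set, keep or remove the methylation of imprints, 6 had a peak in every list, beside 23.0% of all genes (Zfp445, Trim28, Ctcf, Kdm1b, Tet2 and Tet3), 4 had none (Zfp57, Uhrf1, Tet1 and Dppa3) and 0 separated the strains. Zfp57 thus had no peak, while Zfp445, which codes for the other imprint-keeping zinc finger protein, and Trim28, their corepressor, had peaks in all 6 libraries.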

How the data were processed

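The authors precipitated chromatin of adult livers with an antibody against H3K9ac and sequenced read pairs. Per the study's methods, adaptors were trimmed with Trim Galore and pairs were mapped with Bowtie 2 to mm10 (GRCm38), allowing long inserts, whereas the submitters' processing notes list Trim Galore, HISAT2, SAMtools and MACS2. Caller settings and the use of the input libraries are not given in the sources used here, and the 6 input libraries were not analysed here. The deposited files were 1 peak list per library, so replicates were not pooled. The deposited fold enrichment of a peak is a linear ratio over the caller's background. The authors' caller also gave −log10 values of the p-value and the q-value. The deposited score, a multiple of the −log10 q, was left aside. Read counts were not used here, so the depth of a library enters only through which peaks were called, and could not be corrected for. MSM reads were mapped to the B6 sequence, and reads over sequence that differs from it could be lost.

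Genes were taken from GENCODE M21 (GRCm38), 1 per symbol. Lists were compared with Python 3.11.15 and numpy 2.4.6, with an overlap of at least 1 bp, and figures were drawn with matplotlib 3.10.9. A start peak lay within 1 kb of the gene start. Peaks of the 6 lists were merged into regions. A strain call needed both libraries of one strain to lie apart from both of the other. For single values, the test was a two-sided exact permutation over 6 assignments of the 4 parental libraries, which cannot pass 0.05. The overlap functions were tested on simulated data. Folds are given for every gene of the set with a peak in its window, though not for every region. The genes without a peak are given by counts and distances. The 45 genes and the other gene lists were chosen with earlier results of these data known. Alternatives limited the lists to equal number or covered length, raised the −log10 q minimum to 5, asked for 50% of a peak, changed the window or left out a parental library.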

Additional observations from a re-analysis of the deposited data

How the results depend on the processing

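Of 133 recomputed counts, 91 stayed within 1.5 times the reported value or at the same value. The 8 genes with a peak in every list fell to 5 within 5 kb and to 4 within 1 kb of the gene start alone. The 22 without a peak rose to 34 with lists of equal covered length, where the gene called for B6 by presence, the gene called for MSM by presence and the regions called for either strain all fell to 0, as did the genes in F1 BM alone, while 3 were in F1 MB alone. With equal covered length, 6 genes had a peak in all 4 parental lists. Of these, 2 had the higher percentile in B6 and 4 the longer cover in B6. For percentile and cover, the share of all genes called was computed only for the main lists and with a parental library left out. The counts from the other settings can therefore not be set against a background. With equal numbers of peaks, 2 genes were called for MSM by presence (Igf2r and Airn), and 1 had the higher percentile in MSM. The region called for MSM was then that of Igf2r and Airn, not the one in Slc38a4. In the same setting 3 of the 8 genes with a peak in all 4 parental lists had the longer cover in B6. There, 0 genes were in F1 BM alone and 1 was in F1 MB alone. With a −log10 q of at least 5, 0 genes were called for MSM by presence, 1 had the longer cover in B6 and 1 was in F1 MB alone. Within 5 kb or 1 kb of the start, 2 genes were called for B6 by presence, 2 had the higher percentile in B6 and 0 regions were called for MSM, and within 1 kb of any transcript start 0 regions were called for MSM and 2 genes were in F1 BM alone. The replicate numbers did not pair the libraries (correlation of the replicate differences of the strains over 7866 genes, r = -0.0335). With the replicate block, 1 gene had the higher percentile in MSM and 1 the longer cover in B6, and 0 of the fold tests passed, as without the block, the smallest possible p being 0.5.

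Leaving out each parental library in turn gave 8 to 11 genes with a peak in every remaining list and 22 to 24 with none. The calls by presence ran from 1 to 5 for B6 and from 1 to 7 for MSM, those by percentile from 4 to 10 and from 0 to 2, those by covered length from 0 to 14 and from 0 to 4, and the regions from 2 to 15 and from 1 to 6. The highest values for B6 came without B6 2 and those for MSM without B6 1, and with 1 library left in a strain there is no replicate check. The cause of these shifts was not tested, beyond that shorter lists and fewer libraries change what can be called.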
